A study of Mus musculus with 12 samples.

Results

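The genes of actin assembly and crosslinking are 55 of the 33245 genes in the table. They were chosen by name: actin itself, the monomer binders, the severing factors and the kinases and phosphatase that act on cofilin, the Arp2/3 and WAVE complexes, the formins, the Ena/VASP and capping proteins, the crosslinkers and nonmuscle myosin II. All 55 had counts and passed the filter on low counts, as did 14541 genes in all. RNA was sequenced from primary mouse ear fibroblasts kept for 48 h on alginate hydrogels, with 3 biological replicates in each of 4 groups: soft (2 kPa) and stiff (20 kPa) elastic gels, and soft and stiff viscoelastic gels of the same 2 stiffnesses. The gels allow gel type to be compared at each stiffness, and stiffness on each gel type.

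The cells came from ears of mice aged 1 month and were used at passage 2, with 500000 cells seeded on a gel. The study's methods name male and female C57BL/6 mice, and Tau-EGFP reporter mice, as sources of ear fibroblasts. Neither these methods nor the labels, as used here, say which mice gave each sample or whether mice were pooled. Every gel was made of alginate carrying RGD, the peptide that integrins bind. Elastic gels were crosslinked covalently and relax stress little, and viscoelastic gels were crosslinked ionically and relax stress slowly, so that the crosslinking chemistry cannot be told apart from the viscoelasticity.

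Actin filaments grow from monomers that profilin delivers and that thymosins and twinfilin hold back. The Arp2/3 complex, switched on by N-WASP and by the WAVE complex, starts branched networks of the kind found in lamellipodia, whereas formins and Ena/VASP proteins elongate unbranched filaments. Cofilin, destrin and gelsolin sever filaments, capping protein stops their growth, and filamins, alpha-actinins, fascin and nonmuscle myosin II tie filaments into networks, bundles and contractile stress fibres. In fibroblasts these parts make the protrusions and stress fibres through which a cell pulls on its substrate. Serum response factor (SRF), whose coactivators sense free actin monomer, and the Hippo pathway, whose TEAD factors act with YAP and TAZ, are known regulators of many cytoskeletal genes.

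The counts of a sample summed to 36626175 at the lowest and 43612754 at the highest, and the 55 genes took 1.41% to 1.72% of them. The lowest count of a member in any sample was 209, for Wasf1. Levels are given as CPM (counts divided by TMM-scaled library size), and members are ranked by level as CPM per kilobase of exon (RPKM). Ratios of related genes within a sample use CPM without division by exon length and serve to compare gels. Replicates of a gene varied by 7.50% beyond counting noise, as edgeR's common estimate. Summed markers of fibroblasts (9 genes, Col1a1 and Pdgfra among them) ran from 23720 to 29260 CPM, and those of keratinocytes, endothelium, leukocytes and melanocytes stayed below 10 CPM in every sample. Krt14, Pecam1 and Ptprc, which define the first 3, had mean levels of 0.0645, 0.38 and 0.221 CPM. The listed Schwann cell markers summed to between 43.0 and 92.9 CPM, nearly all of it S100b (means 71.9, 42.6, 55.2 and 81.9 CPM on 2- and 20-kPa elastic and 2- and 20-kPa viscoelastic gels, interaction 1.32 ± 0.13, adjusted p = 5.81e-05). A sum that rests on a single gene does not by itself show that Schwann cells were present. Adipocyte markers reached 10.9 CPM, most of it Fabp4, which was highest on 2-kPa elastic gels (mean 9.5 CPM). The part of these cell types in the results was not tested. The chondrocyte markers (6 listed, 5 tested) did not stay low: they summed to between 4504 and 6215 CPM, with Col2a1 at a mean of 2839, Acan at 1139, Comp at 640.4 and Sox9 at 440.3 CPM. The libraries labelled as fibroblasts from the ear thus carried RNA of genes that mark cartilage, in all 4 groups and least in the 3 samples on 20-kPa elastic gels (4504 to 4551 CPM), and the part of this in the results was not tested. In bulk RNA a smaller share of one kind of cell and less RNA per cell cannot be told apart.

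A gene was called where edgeR's quasi-likelihood test gave an adjusted p under 0.05, by the Benjamini-Hochberg (BH) method over every gene tested, and "rose" and "fell" are used of called genes alone. Changes are log2 fold changes ± standard error. On 2-kPa gels 9 members (16.4%) were called between viscoelastic and elastic gels, 4 higher and 5 lower on viscoelastic gels. Of all genes 19.9% were called there, 8.77% higher and 11.1% lower. On 20-kPa gels 22 members (40.0%) were called, 4 higher and 18 lower, beside 33.5% of all genes, 17.4% higher and 16.1% lower. Among the members 32.7% fell at 20 kPa and 7.27% rose. The median change of the 55 was -0.04 at 2 kPa and -0.08 at 20 kPa, and that of all genes 0.00 and 0.02.

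From 2 to 20 kPa on elastic gels 13 members (23.6%) were called, 10 higher and 3 lower at 20 kPa, beside 14% of all genes (6.82% higher, 7.14% lower). On viscoelastic gels 3 members (5.45%) were called, 2 higher and 1 lower, beside 2.28% of all genes (1.58% higher, 0.695% lower). The medians of the 55 were 0.11 on elastic and 0.02 on viscoelastic gels, and those of all genes -0.01 and 0.01. With the viscoelastic effect averaged over both stiffnesses, 21 members (38.2%) were called, 4 higher and 17 lower, beside 40% of all genes (19.6% higher, 20.4% lower). The interaction, which is the effect of stiffness on viscoelastic gels less its effect on elastic gels, was called for 7 members (12.7%), 3 above and 4 below 0, beside 7.56% of all genes (4.45% above, 3.12% below). These comparisons share samples: the elastic 20-kPa group, for example, enters both the gel comparison at 20 kPa and the stiffness comparison on elastic gels.

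Of the 55 genes, 30 were called in at least 1 of the 6 comparisons and 25 in none. The 25 were Pfn1, Pfn2, Twf2, Cfl1, Cfl2, Limk1, Limk2, Ssh1, Arpc1a, Arpc1b, Arpc2, Arpc4, Arpc5, Arpc5l, Wasl, Wasf2, Abi1, Brk1, Cttn, Coro1b, Vasp, Capza1, Capza2, Capzb and Capg. Their changes between pairs of groups lay between -0.20 and 0.23, and the 95% intervals of these changes between -0.39 and 0.36. They hold most subunits of the Arp2/3 complex and all 4 capping genes. A correction for exon length and GC content brought calls for 4 of the 25: Cfl2 at 20 kPa and in the mean viscoelastic effect, Arpc2 in that mean effect, and Pfn1 and Cfl1 with stiffness on elastic gels.

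**Figure D1:**
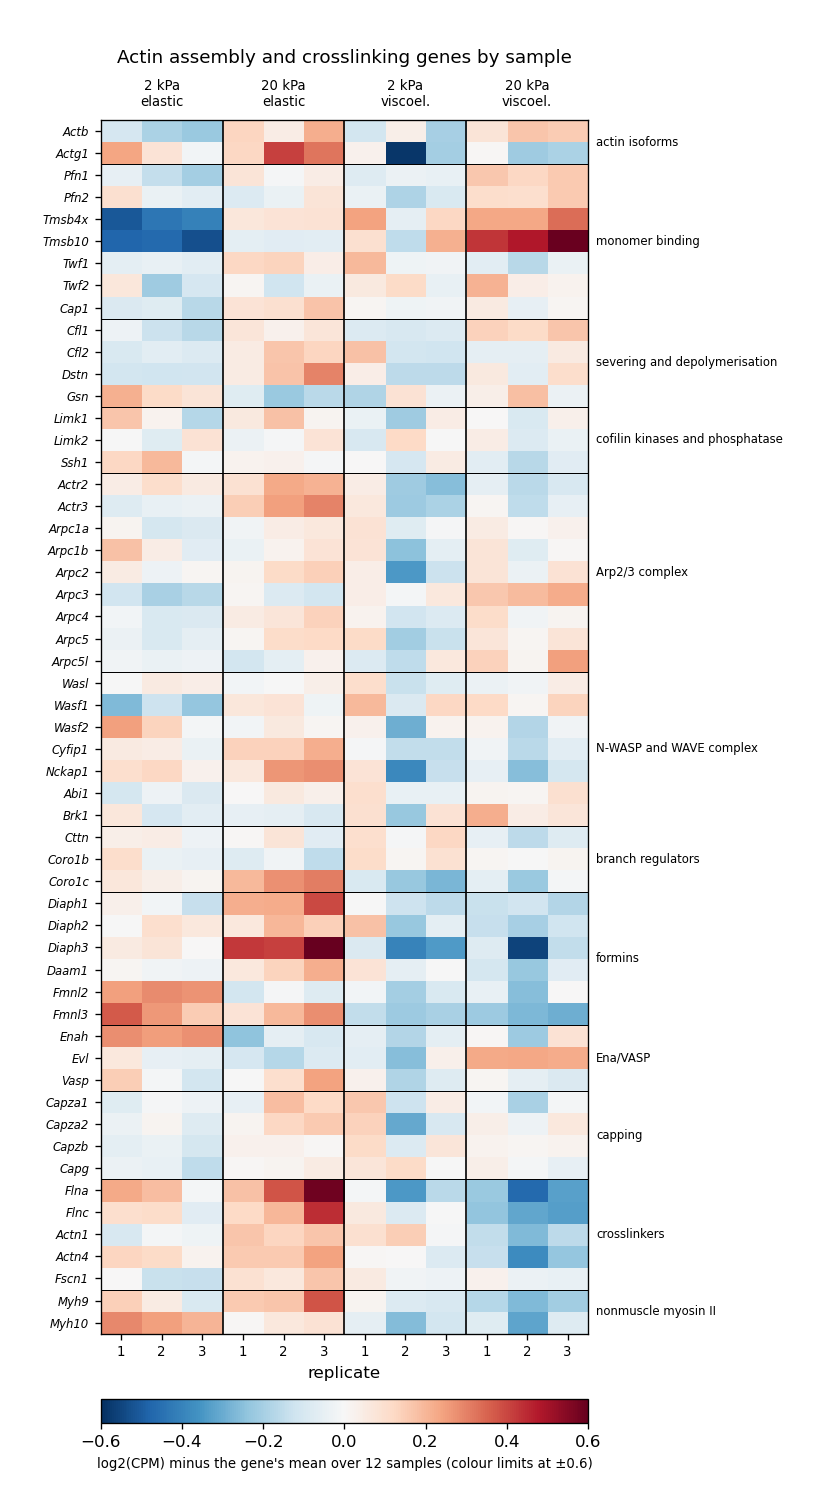
Level of each of the 55 genes (rows, grouped by role) in each of the 12 samples (columns, 3 replicates per gel), as log2 CPM minus the gene's own mean, with colours ending at ±0.6. Tmsb4x and Tmsb10 are lowest in the 3 samples on 2-kPa elastic gels, and Flna, Flnc, Actn1 and Diaph3 are highest on 20-kPa elastic gels and low on 20-kPa viscoelastic gels.

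Actb, the beta-actin gene, was the most abundant of the 55 per exon length (873 RPKM) and rose with stiffness on elastic gels, and Actg1, the gamma-actin gene (86.5 RPKM), fell on viscoelastic gels. Actb levels were 2165, 2037 and 1990 CPM (2 kPa) and 2545, 2400 and 2707 CPM (20 kPa) on elastic gels, and 2156, 2381 and 2024 CPM (2 kPa) and 2456, 2609 and 2588 CPM (20 kPa) on viscoelastic gels. All 3 samples on 20-kPa elastic gels were above all 3 on 2-kPa elastic gels, and at each stiffness the elastic and viscoelastic samples overlapped. Actb rose by 0.31 ± 0.08 from 2 to 20 kPa on elastic gels (edgeR, BH-adjusted p = 0.0196). Its change on viscoelastic gels, 0.22 ± 0.08, was not called (adjusted p = 0.146), and the interaction was -0.08 ± 0.11 (adjusted p = 0.718). Between gel types at 20 kPa the change was 0.00, with a 95% interval of -0.17 to 0.17. The call with stiffness was lost without 2-kPa elastic replicate 2 or 3 or 20-kPa elastic replicate 3 (adjusted p up to 0.0848).

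Actg1 levels were 267, 239.7 and 223 CPM (2 kPa) and 247, 300.2 and 283 CPM (20 kPa) on elastic gels, and 231, 151 and 196 CPM (2 kPa) and 227, 195 and 198 CPM (20 kPa) on viscoelastic gels. The 3 samples on 20-kPa viscoelastic gels lay below the 3 on 20-kPa elastic gels, and at 2 kPa the groups overlapped, with 2-kPa viscoelastic replicate 2 lowest of the 12. Actg1 fell to 0.748 times its elastic level at 20 kPa (log2 -0.42 ± 0.12, adjusted p = 0.0177), and at 2 kPa the change was -0.34 ± 0.12 (adjusted p = 0.0666). Averaged over both stiffnesses it was -0.38 ± 0.09 (adjusted p = 0.00332), a call that every alternative kept. The call at 20 kPa was lost on leaving out replicate 2 or 3 of either 20-kPa group (adjusted p up to 0.0743). The annotation holds 6 other genes near-identical to Actg1 over part of their length, none of them with a count in the table, and how reads that map to several places were treated is not stated.

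RefSeq promoter windows (GRCm38.p6, 250 bases before to 50 after the start of a gene) were at hand for 47 of the 55 genes and not for Actb, Arpc5l, Coro1b, Cttn, Cyfip1, Diaph1, Nckap1 and Twf2. The CArG box, the element that SRF binds, matched on either strand in 1.63% of all windows, which is 1.81% of the genes with a window, and in those of Actg1 and Arpc4 among the members (4.26%). The hexamer GGAATG, which TEAD factors bind, or its reverse complement CATTCC matched in 14.7% of all windows, or 16.6% of the genes with one, and in 9 of the 47 members (19.1%), a share close to that of all genes: Actn4, Arpc2, Evl, Flna, Flnc, Fmnl3, Myh10, Pfn1 and Wasf1. Of the 17 members that were lower in the mean viscoelastic effect, 14 had a window and 5 of these held the hexamer, beside the 16.6% of all genes with a window. The share among all genes lower in that effect was not counted, and a link of the hexamer to the change was not tested. A match is a description of the letters and not of binding. Stretches before the start site are shown for 5 genes whose levels differed between gels, with a CArG box (Actg1) or TEAD hexamer (Flna, Fmnl3) in capitals and, for the thymosins, without a marked element:
Actg1, chr11:120348546-120348615, minus strand: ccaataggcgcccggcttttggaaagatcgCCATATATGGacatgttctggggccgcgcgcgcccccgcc
Flna, chrX:74246645-74246710, minus strand: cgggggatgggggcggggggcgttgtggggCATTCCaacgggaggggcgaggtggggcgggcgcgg
Fmnl3, chr15:99370684-99370732, minus strand: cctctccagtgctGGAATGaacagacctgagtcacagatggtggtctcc
Tmsb4x, chrX:167209219-167209278, minus strand: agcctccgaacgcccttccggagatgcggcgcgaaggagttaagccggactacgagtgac
Tmsb10, chr6:72958749-72958808, minus strand: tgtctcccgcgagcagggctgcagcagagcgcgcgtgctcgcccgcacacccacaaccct

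The monomer binders held the largest rises among the 55 genes. Tmsb4x and Tmsb10, the thymosins beta-4 and beta-10, which bind actin monomers and keep them from polymerising, were lowest on 2-kPa elastic gels. Tmsb4x had the highest level of this role per exon length (182 RPKM). Tmsb4x levels were 172, 182 and 185 CPM (2 kPa) and 256, 259 and 260.1 CPM (20 kPa) on elastic gels, and 289.6, 236 and 266 CPM (2 kPa) and 288, 288 and 309 CPM (20 kPa) on viscoelastic gels. All 9 samples of the other 3 groups were above all 3 on 2-kPa elastic gels. Tmsb4x rose on viscoelastic gels by 0.56 ± 0.07 at 2 kPa (edgeR, BH-adjusted p = 0.000141) and by 0.19 ± 0.07 at 20 kPa (adjusted p = 0.0467). It also rose with stiffness on elastic gels, by 0.53 ± 0.07 (adjusted p = 0.000264), against 0.16 ± 0.07 on viscoelastic gels (adjusted p = 0.224). The difference between these, the interaction, was -0.36 ± 0.10 (adjusted p = 0.0357), kept in 9 of 19 alternatives. The rise at 20 kPa was the least stable of these: it held in 5 of 20 alternatives, and a correction for exon length and GC content turned it to -0.01.

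Tmsb10 levels were 118, 119 and 114 CPM (2 kPa) and 158, 157 and 158 CPM (20 kPa) on elastic gels, and 176, 148 and 190.2 CPM (2 kPa) and 222, 229 and 248 CPM (20 kPa) on viscoelastic gels. The groups did not overlap in any of the 4 pairwise comparisons, and the 3 samples on 20-kPa viscoelastic gels were the highest of the 12. Tmsb10 rose on viscoelastic gels by 0.55 ± 0.08 at 2 kPa and 0.57 ± 0.08 at 20 kPa (adjusted p = 0.000334 and 0.000173). With stiffness it rose by 0.43 ± 0.08 on elastic and 0.44 ± 0.08 on viscoelastic gels (adjusted p = 0.0023 and 0.0168), the one member called in all 4. Its interaction was 0.02, with a 95% interval of -0.21 to 0.25. The call with stiffness on viscoelastic gels was kept in 17 of 20 alternatives (adjusted p up to 0.102). It was lost without 20-kPa viscoelastic replicate 3, the highest of the 12 samples, with the 6 viscoelastic samples alone, and with a replicate block joined to the length and GC correction. A near-identical gene in the table, Gm9844, had 0.667% of the counts of Tmsb10.

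The other monomer binders moved less. Cap1, the adenylyl cyclase-associated protein that recycles monomers, rose with stiffness on elastic gels by 0.23 ± 0.06 (adjusted p = 0.0144). Twf1, the twinfilin that binds monomers and filament ends, fell on viscoelastic gels at 20 kPa with a log2 change of -0.19 ± 0.06 (adjusted p = 0.0367), and this call was lost without 2-kPa elastic replicate 2, 20-kPa elastic replicate 1 or 2 or any 20-kPa viscoelastic sample. Pfn1 and Pfn2, the profilins, and Twf2 were not called in any comparison, although Pfn1 was called with stiffness on elastic gels after the length and GC correction (0.26, adjusted p = 0.00447).

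Among the severing factors the cofilins Cfl1 and Cfl2 were not called without the length and GC correction, after which Cfl2 stood at -0.22 between gel types at 20 kPa (adjusted p = 0.0278) and Cfl1 at 0.17 with stiffness on elastic gels (adjusted p = 0.0405). With stiffness on elastic gels Dstn rose and Gsn fell. Dstn, destrin, which depolymerises filaments, was the highest of this role per exon length (177 RPKM). Dstn levels were 312, 309 and 311 CPM (2 kPa) and 348, 379 and 414 CPM (20 kPa) on elastic gels, and 346, 302 and 301 CPM (2 kPa) and 349.8, 321 and 362 CPM (20 kPa) on viscoelastic gels. Its 20-kPa elastic samples were above all 6 samples at 2 kPa, and 20-kPa viscoelastic replicates 1 and 3 were above the lowest of them. Dstn rose with stiffness on elastic gels by 0.29 ± 0.08 (adjusted p = 0.0185), a call lost without any 1 of the 3 samples on 2-kPa elastic gels or without 20-kPa elastic replicate 3.

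Gsn, gelsolin, which severs and caps filaments in response to calcium, had levels of 635, 591 and 576 CPM (2 kPa) and 520.1, 469 and 489 CPM (20 kPa) on elastic gels, and 483, 580.1 and 534 CPM (2 kPa) and 559.9, 620.4 and 533 CPM (20 kPa) on viscoelastic gels. All 3 samples on 20-kPa elastic gels were below all 3 on 2-kPa elastic gels, the viscoelastic groups overlapped, and at 20 kPa the viscoelastic samples were above the elastic ones. Gsn fell with stiffness on elastic gels with a log2 change of -0.29 ± 0.08 (edgeR, BH-adjusted p = 0.0269), stood at 0.10 ± 0.08 on viscoelastic gels (adjusted p = 0.528) and had an interaction of 0.39 ± 0.11 (adjusted p = 0.0493). This interaction was kept in 4 of 19 alternatives. The kinases Limk1 and Limk2, which inactivate cofilin, and the phosphatase Ssh1, which reactivates it, were not called. Limk2, the highest of these per exon length (4.7 RPKM), had levels of 28.6, 27.2 and 30.4 CPM (2 kPa) and 27.9, 28.5 and 30.3 CPM (20 kPa) on elastic gels, and 26.8, 31.1 and 28.6 CPM (2 kPa) and 29.5, 27 and 27.9 CPM (20 kPa) on viscoelastic gels. These 12 values overlapped throughout, and the 95% interval of the mean viscoelastic effect was -0.12 to 0.09.

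**Figure D2:**
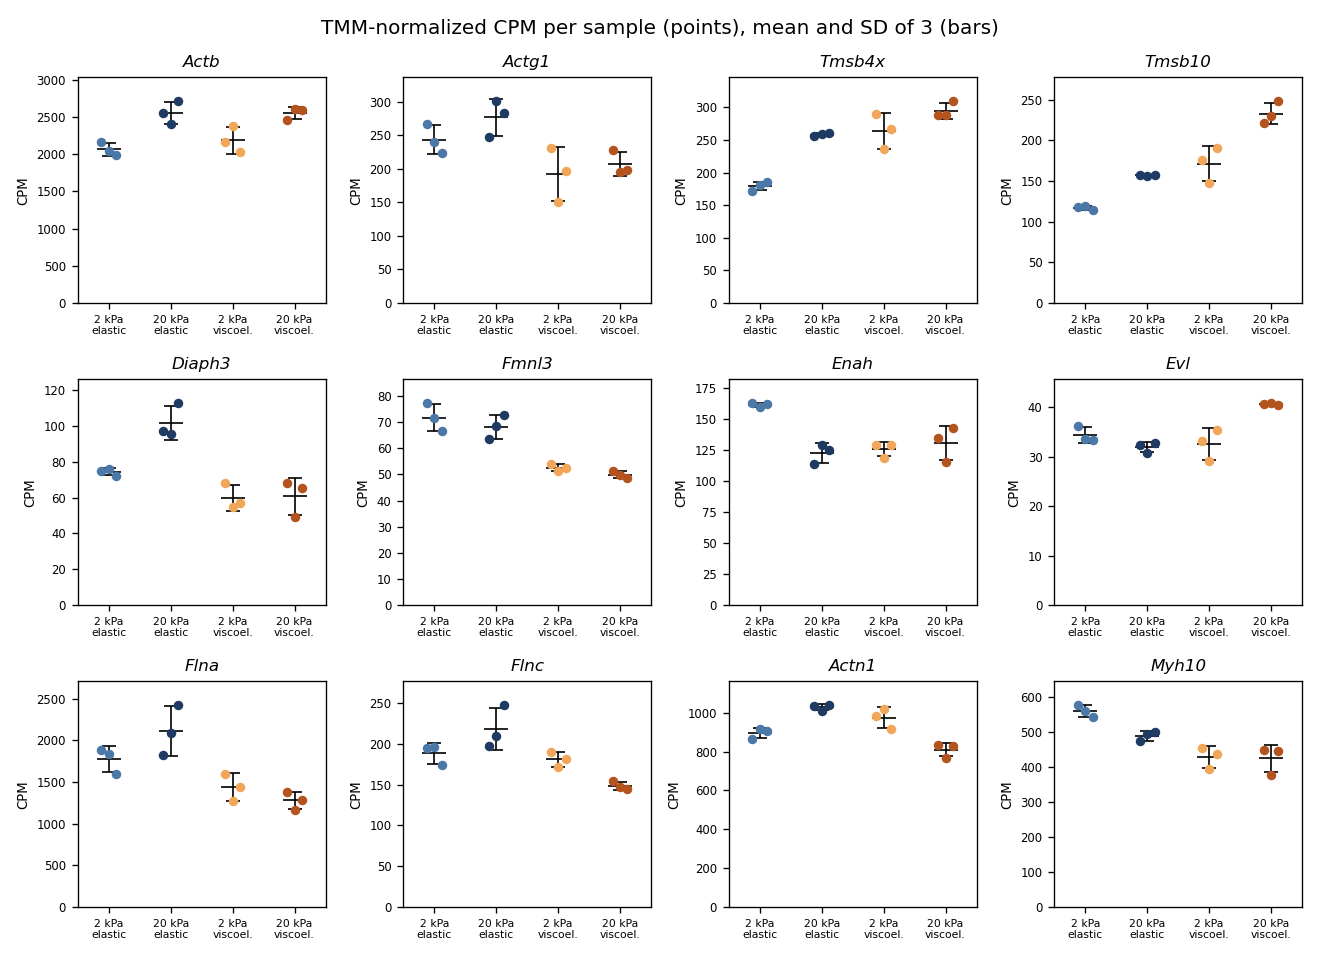
Level of 12 of the 55 genes in each sample (points), in TMM-normalized CPM on axes that start at 0, with the mean and SD of the 3 samples of each gel (bars). Fmnl3 and Myh10 are lower on both viscoelastic gels, Enah is highest on 2-kPa elastic gels, and Evl is highest on 20-kPa viscoelastic gels.

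The 9 genes of the Arp2/3 complex did not move as one. The actin-related subunits Actr2 and Actr3, on which a new branch is built, fell on viscoelastic gels, Arpc3 rose, and the other 6 were not called. Actr2 fell with a log2 change of -0.28 ± 0.07 at 20 kPa (edgeR, BH-adjusted p = 0.00966), and its log2 change was -0.24 ± 0.05 in the mean of both stiffnesses (adjusted p = 0.00223). Actr3 fell with a log2 change of -0.29 ± 0.08 at 20 kPa (adjusted p = 0.00813) and rose with stiffness on elastic gels by 0.28 ± 0.08 (adjusted p = 0.0215), a call lost without any 1 of 5 of the 6 elastic samples (20-kPa replicate 1 being the exception). The p21 subunit Arpc3 was at 95.9, 90.6 and 92.5 CPM (2 kPa) and 104, 98 and 95.9 CPM (20 kPa) on elastic gels, and 106, 103 and 108 CPM (2 kPa) and 116, 118 and 121 CPM (20 kPa) on viscoelastic gels. Its viscoelastic samples were above its elastic samples at each stiffness. Arpc3 rose by 0.19 ± 0.05 at 2 kPa and 0.25 ± 0.05 at 20 kPa (adjusted p = 0.0217 and 0.00247), and the call at 2 kPa held in 14 of 20 alternatives. It was lost without 2-kPa elastic replicate 2 or 3 or 2-kPa viscoelastic replicate 3, with the 6 samples at 2 kPa alone and after the length and GC correction (0.13, adjusted p = 0.0887).

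Arpc2, which holds the complex together, was the highest of it per exon length (134 RPKM). Arpc2 levels were 281, 265 and 273 CPM (2 kPa) and 274, 293 and 299 CPM (20 kPa) on elastic gels, and 279, 214 and 248 CPM (2 kPa) and 286, 265 and 288 CPM (20 kPa) on viscoelastic gels, and 2-kPa viscoelastic replicates 2 and 3 were below the other 10. Over the 12 samples the 36 pairs of Arp2/3 genes had a median Pearson correlation of log2 CPM of 0.54, from -0.61 to 0.89, with 30 pairs above 0. The points of these correlations share libraries and groups. The reads of Arpc1b may include those of Pdap1 on the other strand, over 931 bases, because the strand setting of the counting is not stated.

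In the WAVE complex, the members that fell were the large scaffold subunits. Nckap1 fell on viscoelastic gels with a log2 change of -0.34 ± 0.10 at 20 kPa (edgeR, BH-adjusted p = 0.0168) and -0.28 ± 0.07 in the mean (adjusted p = 0.00548), and the call at 20 kPa was lost without 20-kPa elastic replicate 2 or 3 or 20-kPa viscoelastic replicate 2 (adjusted p up to 0.0711). Cyfip1, which links the complex to Rac, fell with a log2 change of -0.25 ± 0.06 at 20 kPa (adjusted p = 0.00591), a call lost after the correction for length and GC content (adjusted p up to 0.0693). Its exons overlap genes on the other strand over 1489 bases. Wasf1, one of the WAVE proteins, had the fewest counts of the 55 (mean 6.78 CPM), though per exon length Limk1 was lower (1.54 against 2.38 RPKM). Wasf1 was at 5.62, 6.2 and 5.74 CPM (2 kPa) and 7.07, 7.14 and 6.63 CPM (20 kPa) on elastic gels, and 7.71, 6.36 and 7.35 CPM (2 kPa) and 7.32, 6.8 and 7.4 CPM (20 kPa) on viscoelastic gels. At 2 kPa it rose by 0.29 ± 0.09 (adjusted p = 0.0428), and this held in 7 of 20 alternatives. Brk1, a small subunit and the highest of this role per exon length (57.2 RPKM), read 65.4, 58.3 and 59.8 CPM (2 kPa) and 60.5, 60.3 and 58.4 CPM (20 kPa) on elastic gels, and 66.9, 53.5 and 66.4 CPM (2 kPa) and 72.7, 64.5 and 65.8 CPM (20 kPa) on viscoelastic gels. The groups of Brk1 overlapped at 2 kPa and stood apart at 20 kPa (adjusted p = 0.0969), and no comparison was called. Wasl, the gene of N-WASP, Wasf2 and Abi1 were not called either.

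Of the proteins that stabilise or take apart branches, Coro1c was called and Cttn and Coro1b were not. Coro1c, a coronin, fell on viscoelastic gels with a log2 change of -0.24 ± 0.07 at 2 kPa and -0.35 ± 0.07 at 20 kPa (edgeR, p after BH adjustment 0.0196 and 0.00105, the former held in 15 of 20 alternatives), from means of 76 ± 1.46 and 88.3 ± 3.51 CPM on elastic gels to 64.5 ± 4.3 and 69.2 ± 5.22 CPM (SD, n = 3). It rose with stiffness on elastic gels by 0.22 ± 0.07 (adjusted p = 0.0374), held in 14 of 20 alternatives. Cttn, cortactin, which stabilises branches, had the highest level of these per exon length (103 RPKM), at 440.5, 444 and 421 CPM (2 kPa) and 432, 454 and 410.3 CPM (20 kPa) on elastic gels, and 462, 429 and 469 CPM (2 kPa) and 416, 386 and 408 CPM (20 kPa) on viscoelastic gels. Its 20-kPa viscoelastic samples were below the 2-kPa viscoelastic ones and overlapped the 20-kPa elastic ones, and the stiffness change on viscoelastic gels, -0.17 ± 0.06, was not called (adjusted p = 0.156).

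Of the 6 formins among the members, 2 fell on viscoelastic gels at 2 kPa (beside 11.1% of all genes), 5 at 20 kPa (beside 16.1%) and 6 in the mean of both stiffnesses (beside 20.4%). After the length and GC correction Diaph2 and Daam1 were not called in the mean effect, and at 2 kPa Daam1 was at 0.02. Diaph3 fell most, from a mean of 102 ± 9.41 CPM on 20-kPa elastic gels to 60.8 ± 10.3 CPM on 20-kPa viscoelastic gels (SD, n = 3), and Fmnl3 fell alike at both stiffnesses. Diaph1 and Diaph3 rose with stiffness on elastic gels, whereas Fmnl2 fell. In the mean effect the other formins changed by -0.18 (Diaph2), -0.12 (Daam1) and -0.20 (Fmnl2), kept in 15 of 19, 8 of 19 and 19 of 19 alternatives. Not every formin fell: Daam2, which is not a member, rose in that mean effect (0.56).

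Diaph3, whose product mDia2 works in filopodia and in cell division, had levels of 74.9, 76 and 72.1 CPM (2 kPa) and 96.9, 95.7 and 112 CPM (20 kPa) on elastic gels, and 67.9, 54.6 and 57 CPM (2 kPa) and 68.3, 49 and 65.1 CPM (20 kPa) on viscoelastic gels. All 3 samples on 20-kPa elastic gels were above the other 9. Diaph3 fell on viscoelastic gels with a log2 change of -0.74 ± 0.11 at 20 kPa (edgeR, BH-adjusted p = 0.000245) and stood at -0.31 ± 0.11 at 2 kPa (adjusted p = 0.0558), where the gel types did not overlap, and it rose with stiffness on elastic gels by 0.45 ± 0.11 (adjusted p = 0.0126). The last call was lost without 20-kPa elastic replicate 3 (adjusted p = 0.0675). Its interaction, -0.43 ± 0.15, was not called (adjusted p = 0.107). The 8 markers of proliferation moved the same way: they summed to between 1349 and 1567 CPM on 20-kPa elastic gels, 1100 and 1178 on 2-kPa elastic, 828.1 and 924.4 on 2-kPa viscoelastic and 737.2 and 973.1 on 20-kPa viscoelastic gels. On viscoelastic gels 5 of the 8 fell at 2 kPa (62.5%, beside 11.1% of all genes) and all 8 at 20 kPa (beside 16.1%). These are RNA levels, and the paper's EdU labelling after 48 h did not follow them between gel types. There, viscoelasticity raised proliferation at 2 kPa and made no significant difference at 20 kPa. Among elastic gels the labelling grew with stiffness, as the marker sums did. Why the markers and the labelling differ was not tested, nor was the part of proliferation in the change of Diaph3.

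Diaph1, the formin mDia1 of stress fibres, had levels of 60.4, 58.3 and 53.7 CPM (2 kPa) and 68.6, 69 and 77.6 CPM (20 kPa) on elastic gels, and 59, 54.1 and 52.9 CPM (2 kPa) and 53.8, 54.4 and 52.2 CPM (20 kPa) on viscoelastic gels. Its 20-kPa elastic samples were above all others, which overlapped. Diaph1 rose with stiffness on elastic gels by 0.32 ± 0.07 and changed by -0.05 ± 0.07 on viscoelastic gels (edgeR, BH-adjusted p = 0.00496 and 0.733). The interaction was -0.37 ± 0.09 (adjusted p = 0.025), lost without 2-kPa elastic replicate 3, 2-kPa viscoelastic replicate 1, 20-kPa elastic replicate 3 or 20-kPa viscoelastic replicate 1 or 3 (adjusted p up to 0.065). At 20 kPa Diaph1 fell on viscoelastic gels with a log2 change of -0.42 ± 0.07 (adjusted p = 0.00033), and at 2 kPa the change was -0.05 ± 0.07.

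Fmnl3 levels were 77.2, 71.6 and 66.5 CPM (2 kPa) and 63.3, 68.4 and 72.6 CPM (20 kPa) on elastic gels, and 54, 51.3 and 52.3 CPM (2 kPa) and 51.4, 49.6 and 48.8 CPM (20 kPa) on viscoelastic gels. All 6 viscoelastic samples were below all 6 elastic samples. This formin of filopodia and lamellipodia fell with a log2 change of -0.45 ± 0.06 at 2 kPa and -0.45 ± 0.06 at 20 kPa (edgeR, p after BH adjustment 0.00037 and 0.000222), and both calls held under every alternative. Its interaction was 0.00, with a 95% interval of -0.19 to 0.20. Fmnl2, the related formin and the highest of the 6 per exon length (36.1 RPKM), was at 239.7, 246 and 244 CPM (2 kPa) and 187, 201 and 192 CPM (20 kPa) on elastic gels, and 200, 175 and 189.5 CPM (2 kPa) and 196, 169 and 202 CPM (20 kPa) on viscoelastic gels. Only its 2-kPa elastic samples stood apart, above the other 9. Fmnl2 fell on viscoelastic gels at 2 kPa with a log2 change of -0.37 ± 0.07 (adjusted p = 0.00247), with -0.03 ± 0.07 at 20 kPa, and fell with stiffness on elastic gels with -0.33 ± 0.07 (adjusted p = 0.00638). The interaction of 0.34 ± 0.10 missed the threshold (adjusted p = 0.0529) and was called after the length and GC correction (0.36, adjusted p = 0.022).

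The 3 Ena/VASP genes, which speed filament growth at leading edges and filopodial tips, were called as lower (Enah), as higher (Evl) and not at all (Vasp) on viscoelastic gels. Enah, the gene of Mena, read 162, 159.7 and 162 CPM (2 kPa) and 113, 129 and 125 CPM (20 kPa) on elastic gels, and 129, 119 and 129 CPM (2 kPa) and 135, 115 and 142 CPM (20 kPa) on viscoelastic gels. As for Fmnl2, the 3 samples on 2-kPa elastic gels were above the other 9, which overlapped. Enah fell on viscoelastic gels at 2 kPa with a log2 change of -0.36 ± 0.07 (edgeR, BH-adjusted p = 0.00389), and from 2 to 20 kPa on elastic gels with -0.40 ± 0.07 (adjusted p = 0.00286). The corresponding values were 0.09 ± 0.07 at 20 kPa and 0.06 ± 0.07 on viscoelastic gels, neither called (at 20 kPa 0.25, adjusted p = 0.00989, after the length and GC correction), and the interaction was 0.45 ± 0.11 (adjusted p = 0.0168) and kept under every alternative at 0.05 (adjusted p up to 0.05).

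Evl levels were 36.2, 33.5 and 33.3 CPM (2 kPa) and 32.3, 30.7 and 32.7 CPM (20 kPa) on elastic gels, and 33.2, 29.1 and 35.4 CPM (2 kPa) and 40.6, 40.7 and 40.4 CPM (20 kPa) on viscoelastic gels. All 3 samples on 20-kPa viscoelastic gels were above the other 9. Evl rose on viscoelastic gels at 20 kPa by 0.35 ± 0.07 (edgeR, BH-adjusted p = 0.00152) and with stiffness on viscoelastic gels by 0.32 ± 0.07 (adjusted p = 0.0305), the latter a call that leaving out any of 5 of the 6 viscoelastic samples ended (2-kPa replicate 3 being the exception). The interaction was 0.42 ± 0.10 (adjusted p = 0.0145), and the correction for length and GC content ended that call. Vasp, the highest of the 3 per exon length (23.8 RPKM), was at 68.7, 61.5 and 57.5 CPM (2 kPa) and 61.9, 66.4 and 73.3 CPM (20 kPa) on elastic gels, and 63.1, 54.8 and 58.7 CPM (2 kPa) and 62.5, 59.7 and 58.5 CPM (20 kPa) on viscoelastic gels. The groups of Vasp overlapped in all 4 pairwise comparisons, and none was called.

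The 4 capping genes were not called in any comparison. Capzb, the beta subunit of capping protein and the highest of them per exon length (93.5 RPKM), read 296, 299 and 286 CPM (2 kPa) and 313, 314 and 309 CPM (20 kPa) on elastic gels, and 334, 291 and 324 CPM (2 kPa) and 312, 310.3 and 313 CPM (20 kPa) on viscoelastic gels. At 20 kPa the gel types differed by 0.00, with a 95% interval of -0.13 to 0.12. The other capping genes, Capza1, Capza2 and Capg, changed by -0.05, -0.06 and 0.05 in the mean viscoelastic effect.

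Of the 5 crosslinkers, 4 fell on viscoelastic gels at 20 kPa (beside 16.1% of all genes) and 0 were called at 2 kPa by edgeR. Flna, filamin A, which crosslinks filaments into networks and ties them to integrins, fell to 0.605 times its level on elastic gels. Flna was the most abundant of them per exon length (176 RPKM) and was at 1886, 1834 and 1598 CPM (2 kPa) and 1823, 2092 and 2418 CPM (20 kPa) on elastic gels, and 1599, 1270 and 1443 CPM (2 kPa) and 1380, 1166 and 1287 CPM (20 kPa) on viscoelastic gels. Its 20-kPa viscoelastic samples were below all elastic samples, and the 2-kPa groups overlapped at the margin. Flna fell with a log2 change of -0.72 ± 0.11 at 20 kPa (edgeR, BH-adjusted p = 0.000339) and stood at -0.30 ± 0.11 at 2 kPa (adjusted p = 0.0691), a value called without 2-kPa viscoelastic replicate 1. The interaction, -0.42 ± 0.16, was not called (adjusted p = 0.122).

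Flnc, the filamin of muscle, read 195, 196 and 174 CPM (2 kPa) and 198, 209 and 247 CPM (20 kPa) on elastic gels, and 189.8, 172 and 182 CPM (2 kPa) and 154, 147 and 145 CPM (20 kPa) on viscoelastic gels. All 3 samples on 20-kPa viscoelastic gels were below the other 9. Flnc fell on viscoelastic gels with a log2 change of -0.55 ± 0.08 at 20 kPa (edgeR, BH-adjusted p = 0.000221) and changed by -0.06 ± 0.08 at 2 kPa. With stiffness it changed by 0.21 ± 0.08 on elastic and -0.28 ± 0.08 on viscoelastic gels, neither called (adjusted p = 0.0912 and 0.0699), and the interaction between these was -0.49 ± 0.11 (adjusted p = 0.0145), called under every alternative run at the same threshold of 0.05.

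Actn1 and Actn4 are the alpha-actinins of stress fibres. Actn1 levels were 865, 917 and 907 CPM (2 kPa) and 1037, 1011 and 1038 CPM (20 kPa) on elastic gels, and 986, 1022 and 918 CPM (2 kPa) and 833, 769.6 and 829 CPM (20 kPa) on viscoelastic gels. The 20-kPa elastic samples were above the 2-kPa elastic ones, and the 20-kPa viscoelastic samples were below all others. Actn1 fell on viscoelastic gels with a log2 change of -0.34 ± 0.06 at 20 kPa and fell with stiffness on viscoelastic gels with -0.27 ± 0.06 (edgeR, BH-adjusted p = 0.00121 and 0.0441), against 0.12 ± 0.06 at 2 kPa and 0.20 ± 0.06 with stiffness on elastic gels (adjusted p = 0.201 and 0.0548). Its interaction was -0.46 ± 0.09 (adjusted p = 0.0063), the lowest adjusted p of an interaction among the 55 and a call that held under every alternative at 0.05. The fall with stiffness on viscoelastic gels held in 6 of 20 alternatives. Actn4 fell on viscoelastic gels at 20 kPa with a log2 change of -0.43 ± 0.07 (adjusted p = 0.000492), from a mean of 932 ± 32.7 to 692 ± 57.3 CPM (SD, n = 3). Fscn1, fascin, the bundler of filopodia, rose with stiffness on elastic gels by 0.20 ± 0.06 (adjusted p = 0.0365), held in 14 of 20 alternatives.

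Both of the listed nonmuscle myosin II heavy chains, motors of stress fibres and of the cell cortex, fell on viscoelastic gels, Myh9 at 20 kPa and Myh10 at both stiffnesses. Myh9, the more abundant per exon length (110.5 RPKM), was at 1567, 1467 and 1330 CPM (2 kPa) and 1580, 1590 and 1843 CPM (20 kPa) on elastic gels, and 1434, 1341 and 1327 CPM (2 kPa) and 1258, 1179 and 1226 CPM (20 kPa) on viscoelastic gels. Its 20-kPa viscoelastic samples were below every other sample. Myh9 fell with a log2 change of -0.45 ± 0.08 at 20 kPa (edgeR, BH-adjusted p = 0.000896) and changed by -0.09 ± 0.08 at 2 kPa (adjusted p = 0.47), with an interaction of -0.36 ± 0.12 (adjusted p = 0.0695). That interaction was called after the length and GC correction (-0.38, adjusted p = 0.0376). Myh10 levels were 577, 561 and 544 CPM (2 kPa) and 475, 494 and 501 CPM (20 kPa) on elastic gels, and 455, 395 and 438 CPM (2 kPa) and 449, 379 and 448 CPM (20 kPa) on viscoelastic gels. All 6 viscoelastic samples were below all 6 elastic samples. Myh10 fell with a log2 change of -0.38 ± 0.07 at 2 kPa (adjusted p = 0.00277) and with -0.20 ± 0.07 at 20 kPa (adjusted p = 0.0466), the latter kept in 9 of 20 alternatives. After the length and GC correction the change of Myh10 at 20 kPa was -0.10 and not called (adjusted p = 0.247).

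The effects of gel type at the 2 stiffnesses come from separate samples and can be set side by side. Of the 55 genes, 36 (65.5%) changed in the same direction at 2 and at 20 kPa, beside 68.3% of all genes, and the Pearson correlation of the changes was 0.54 over the 55 and 0.32 over all genes. Tmsb4x, Tmsb10, Arpc3, Coro1c, Fmnl3 and Myh10 were called at both, in the same direction. After the length and GC correction Tmsb4x and Myh10 were no longer called at 20 kPa, nor Arpc3 and Coro1c at 2 kPa. Tmsb10 and Fmnl3 stayed called at both. Without that correction, Wasf1, Fmnl2 and Enah were called at 2 kPa and not at 20 kPa, and 16 genes at 20 kPa and not at 2 kPa. Of these 19 genes the interaction was called for Enah, Evl, Diaph1, Flnc and Actn1, so that a difference between the stiffnesses was called for those 5. This call was kept under every alternative at 0.05 for Enah, Flnc and Actn1. It was kept in 14 of 19 for Diaph1 and 17 of 19 for Evl, where the length and GC correction ended it. The same correction brought interaction calls for others of the 19 genes (edgeR, BH-adjusted p). These were Fmnl2 (0.022), Myh9 (0.0376), Daam1 (0.0389), Twf1 (0.042) and Actn4 (0.049).

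**Figure D3:**
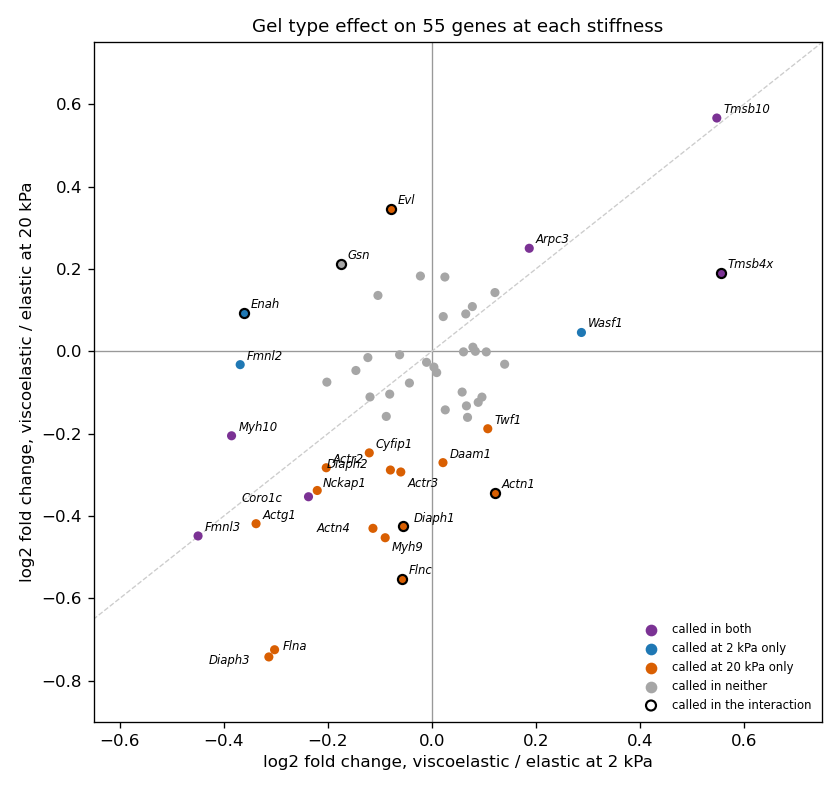
Change between viscoelastic and elastic gels at 2 kPa (horizontal axis) and at 20 kPa (vertical axis) for each of the 55 genes, both as log2 fold changes, with equal changes on the dashed line. Colours give the calls (edgeR, BH-adjusted p under 0.05) and black rings the 7 genes with a called interaction: most called genes lie below the horizontal line, and Tmsb10, Arpc3 and Fmnl3 lie near the dashed line.

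The effects of stiffness on the 2 gel types also come from separate samples. On elastic gels Actb, Tmsb4x, Tmsb10, Cap1, Dstn, Actr3, Coro1c, Diaph1, Diaph3 and Fscn1 rose from 2 to 20 kPa and Gsn, Fmnl2 and Enah fell. On viscoelastic gels Tmsb10 and Evl rose and Actn1 fell. Of the 55 genes 30 (54.5%) changed in the same direction on both gel types, beside 52.6% of all genes, and the correlation of the changes was 0.06 over the 55 and -0.10 over all genes. The count on elastic gels was 13 with all samples and fell to 7 without 2-kPa elastic replicate 2, 7 without replicate 3 and 5 without 20-kPa elastic replicate 3. Calls among all genes fell alike, from 2029 to 1341, 1360 and 1063. On viscoelastic gels the count of members was 3 and fell to 1 without 2-kPa replicate 1 or 2 or 20-kPa replicate 1 or 2, and to 0 without 20-kPa replicate 3. Among all genes 331 were called there, and 127, 219, 36, 262 and 9 in the same order. With all samples 16 members had an unadjusted p under 0.05 on viscoelastic gels (2768 of all genes), and DESeq2 called 9 (757 of all genes).

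**Figure D4:**
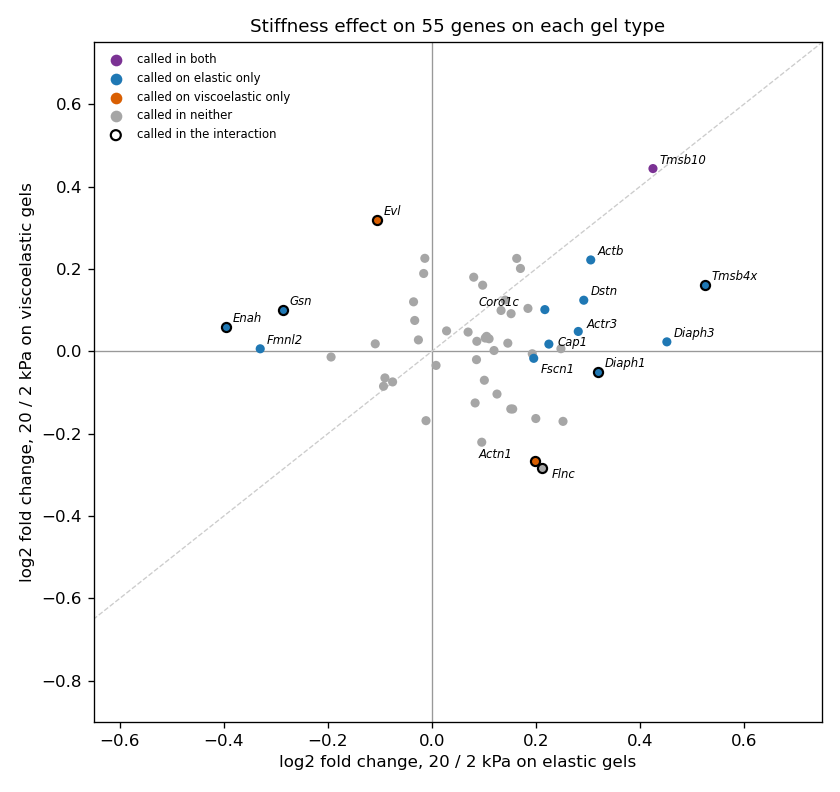
Change from 2 to 20 kPa on elastic gels (horizontal axis) and on viscoelastic gels (vertical axis) for each of the 55 genes, as log2 fold changes, with equal changes on the dashed line. Of the genes called on elastic gels, Tmsb10 alone is called on both, and Enah, Gsn, Diaph1 and Tmsb4x carry a ring for a called interaction.

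Exon length went with the gel effect among the 55 genes. Summed exon length was 1276 bases for Tmsb10, 1371 for Tmsb4x and 2762 for Arpc3, and 9400 for Flna, 9402 for Flnc, 10458 for Myh10 and 12928 for Myh9. Spearman's rank correlation between exon length and the mean viscoelastic effect was -0.69 over the 55 genes and -0.34 over the 13784 tested genes with a known length, which share the same libraries. After a correction of each sample for exon length and GC content this correlation over the 55 was -0.28. That correction left 20 of the 55 called in the mean effect, 16 of them among the 21 called without it. Those no longer called were Cyfip1, Diaph2, Daam1, Evl and Myh9. At 20 kPa 24 were then called, 19 of them among the 22 called without it, with Cap1, Cfl2, Dstn and Fscn1 added as lower and Enah as higher. Tmsb4x, Cyfip1 and Myh10 were no longer called at 20 kPa, and Flna, Flnc, Actn1, Actn4, Diaph1, Diaph3, Fmnl3, Tmsb10 and Myh9 remained. The part of transcript length in these changes was otherwise not tested.

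For 12 pairs of related genes with the same role the 2 levels were compared as ratios within a sample, which do not depend on the scaling of the libraries. The ratios are of CPM not divided by exon length, so they compare gels and do not give relative levels per length. Viscoelastic and elastic samples were exchanged within each stiffness in an exact permutation test with 400 arrangements, whose smallest two-sided p is 0.005, and p-values were BH-adjusted over the 12 pairs. The ratio differed for 4 pairs. Actb to Actg1 was 8.5 and 9.24 on elastic gels of 2 and 20 kPa and 11.5 and 12.3 on viscoelastic gels, a mean log2 difference of 0.43 (exact permutation p = 0.005, adjusted 0.02). In log2 units the samples were at 3.02, 3.09 and 3.15 and 3.37, 3.00 and 3.26 on elastic gels and at 3.23, 3.98 and 3.37 and 3.43, 3.74 and 3.71 on viscoelastic gels. All 6 viscoelastic samples were above the elastic samples of their own stiffness.

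Diaph1 to Diaph3 was 0.772 and 0.706 on elastic and 0.928 and 0.888 on viscoelastic gels, a log2 difference of 0.30 (exact permutation p = 0.005, adjusted 0.02). Flna to Flnc was 9.4 and 9.66 on elastic and 7.91 and 8.57 on viscoelastic gels, a log2 difference of -0.21 (exact permutation p = 0.005, adjusted 0.02). Actn1 to Actn4 differed by 0.16 (exact permutation p = 0.01, adjusted 0.03), and this call was lost without 20-kPa viscoelastic replicate 2. The other 8 pairs had exact permutation p-values between 0.055 and 0.775. Of these, 6 had differences of opposite sign at the 2 stiffnesses, a contrast that was not tested for ratios. Myh9 to Myh10 had the widest gap, at 0.30 at 2 kPa and -0.24 at 20 kPa, followed by Tmsb4x to Tmsb10 at 0.01 and -0.37, and the others were Pfn1 to Pfn2, Cfl1 to Cfl2, Arpc5 to Arpc5l and Capza1 to Capza2. Without 2-kPa viscoelastic replicate 1 the number of pairs called was 7.

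**Figure D5:**
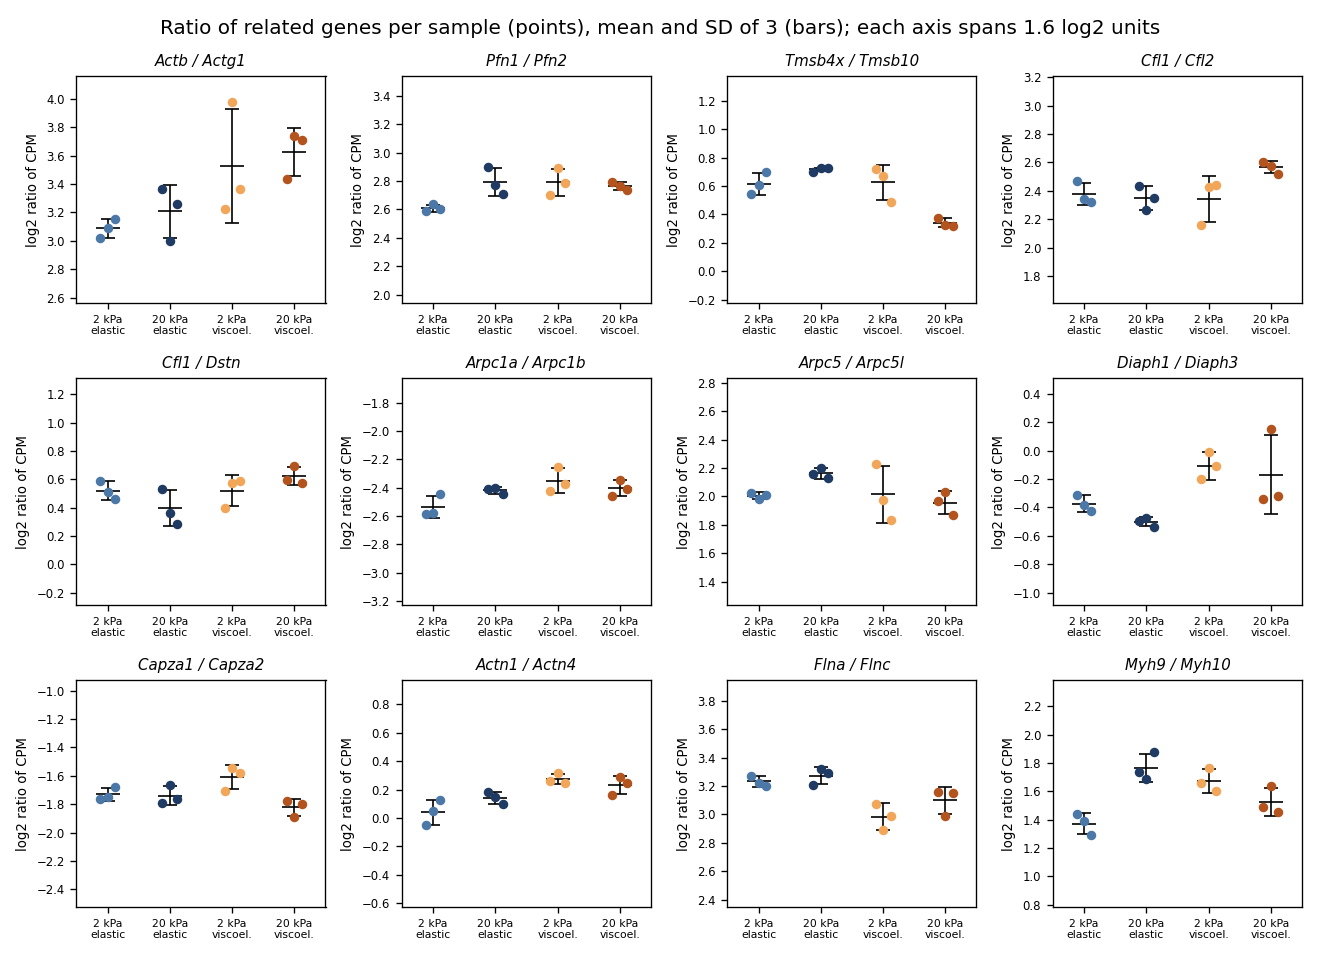
Log2 ratio of CPM for 12 pairs of related genes in each sample (points), with the mean and SD of the 3 samples of each gel (bars), on axes that all span 1.6 log2 units. The ratio of Actb to Actg1 is higher in the viscoelastic samples at each stiffness and that of Flna to Flnc lower.

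Across the 12 samples the members most like Actb in log2 CPM were Cfl1 (Pearson r = 0.87), Pfn1 (0.85), Cap1 (0.71), Dstn (0.68) and Arpc4 (0.67), all with roles in monomer turnover except Arpc4. Those most unlike it were Cttn (-0.66), Fmnl2 (-0.66), Enah (-0.63) and Ssh1 (-0.61). Actg1, the other cytoplasmic actin, had an r of 0.05. These are descriptions over samples that share groups and scaling.

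Other genes of the actin cytoskeleton were read from 5 lists with 103 genes, 92 of them tested. On viscoelastic gels 17 rose and 10 fell at 2 kPa (edgeR, BH-adjusted p under 0.05), which is 18.5% and 10.9% beside 8.77% and 11.1% of all genes. At 20 kPa 12 rose and 29 fell, 13.0% and 31.5% beside 17.4% and 16.1%. With stiffness on elastic gels 24 rose and 5 fell, 26.1% and 5.43% beside 6.82% and 7.14%. On viscoelastic gels 2 rose (2.17% beside 1.58%) and 0 fell (0.695% of all genes), the 2 being Acta1 (0.76 ± 0.18, adjusted p = 0.0425) and Pdlim1 (0.53 ± 0.10, adjusted p = 0.0194). In the mean viscoelastic effect 17 rose and 24 fell, 18.5% and 26.1% beside 19.6% and 20.4%, and the interaction was above 0 for 4 and below 0 for 15, 4.35% and 16.3% beside 4.45% and 3.12%. In that mean effect Myo5a, a cargo-carrying myosin, had the largest change in the list of tropomyosins, light chains and myosins (-0.43 ± 0.07, adjusted p = 0.000339), Daam2, a formin, the other nucleators (0.56 ± 0.08, adjusted p = 0.000145), and Tagln2, a transgelin, the other actins and their smooth muscle binders (-0.25 ± 0.05, adjusted p = 0.00139). Lcp1, the bundler L-plastin, and the profilin Pfn4 led the last 2 lists at mean levels of 0.238 and 1.07 CPM, with -0.76 ± 0.27 and 0.56 ± 0.15 (adjusted p = 0.0354 and 0.00798).

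In the list of other actins and smooth muscle actin binders the calls at the 2 stiffnesses differed. With stiffness on elastic gels 7 of its 9 tested genes rose (77.8%, beside 6.82% of all genes) and on viscoelastic gels 1 did (11.1%, beside 1.58%). On viscoelastic against elastic gels 6 rose and 1 fell at 2 kPa (66.7% and 11.1%, beside 8.77% and 11.1%). At 20 kPa 1 rose and 5 fell (11.1% and 55.6%, beside 17.4% and 16.1%), and the interaction was below 0 for 6 (66.7%, beside 3.12%). Acta2, the smooth muscle alpha-actin of myofibroblasts, was at 563, 530.0 and 491 CPM (2 kPa) and 722, 795 and 829 CPM (20 kPa) on elastic gels, and 673, 629 and 618 CPM (2 kPa) and 597, 517 and 620.0 CPM (20 kPa) on viscoelastic gels. Its 20-kPa elastic samples were above the other 9, and its 2-kPa viscoelastic samples were above the 2-kPa elastic ones. Acta2 rose on viscoelastic gels at 2 kPa by 0.28 ± 0.08 (adjusted p = 0.0264), fell at 20 kPa with a log2 change of -0.44 ± 0.08 (adjusted p = 0.00113) and had an interaction of -0.71 ± 0.12 (adjusted p = 0.00163). For Tagln, transgelin, the same 3 values were 0.30 ± 0.10, -0.58 ± 0.10 and -0.88 ± 0.14 (adjusted p = 0.047, 0.000585 and 0.00153), and for Cnn1, calponin, 0.54 ± 0.08, -0.26 ± 0.08 and -0.79 ± 0.11 (adjusted p = 0.000479, 0.0217 and 0.000637). These 3 were named after their values were seen. The 6 summed markers of smooth muscle and pericytes, all tested, ran from 380.0 to 551.2 CPM on elastic and 283.1 to 340.2 CPM on viscoelastic gels, mostly of Cspg4 (means 504, 421, 318 and 300.3 CPM on 2- and 20-kPa elastic and 2- and 20-kPa viscoelastic gels). Lmod1 and Myh11 of that list took another course: in the same order Lmod1 had means of 7.5, 13.3, 11.71 and 9.21 CPM and Myh11 of 1.15, 3.08, 2.1 and 1.34 CPM. Both rose with stiffness on elastic gels and, on viscoelastic gels, rose at 2 kPa and fell at 20 kPa, as did Acta2, Tagln and Cnn1. The other 3 markers (Rgs5, Kcnj8 and Des) had means under 1 CPM, and not all of them followed this course. Changes of the 6 ran from -0.83 to 0.86 between gel types at 2 kPa and from -0.92 to 1.41 with stiffness on elastic gels. Their interactions ran from -2.06 to 0.93. Myh11 was at one end of each range and one of the markers under 1 CPM at the other. The part of these 6 markers in the results was not tested.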

How the data were processed

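The authors trimmed reads of poly(A)-selected RNA with Trimmomatic, aligned them to mm10 with STAR and deposited raw counts per gene from featureCounts, without normalization, in 1 table of 12 samples. The annotation release, strand setting and treatment of multi-mapping reads are not given in the sources used here. The members and lists were chosen with earlier results of these data known. A row that names no gene was left out. Counts were fitted with edgeR 4.0.16 (R 4.3.3): filterByExpr (minimum count 10, minimum total 15), TMM scaling, 1 coefficient for each of the 4 groups over all 12 samples, quasi-likelihood tests and BH adjustment over the 14541 genes tested. The groups come from the sample titles. P-values measure the spread of 3 samples per group. Log2 CPM used a prior count of 2. Exon length, GC content and overlaps came from GENCODE M21 (GRCm38), matched by symbol for all 55 members. Ratios of related genes were tested by exact permutation within stiffness. The tests were checked on simulated counts.

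Genes were named by a rule: all 55 by role, with values per sample for Actb, Actg1, the 6 called members with the largest change in each pairwise comparison, each member with a called interaction and the highest per exon length in each role, and from each pathway list the called gene with the largest change in the mean viscoelastic effect. One pathway list that was fitted is not reported here. Alternatives were DESeq2 1.42.0 (its size factors and its Wald test), total counts alone, no filter, a replicate block, a length and GC correction (loess, span 0.3), both of these, the 6 samples of a comparison alone, a threshold of 0.01 and leaving out each sample.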

Additional observations from a re-analysis of the deposited data

Results flagged for a closer look

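For 7 of the 55 genes (12.7%, beside 7.56% of all genes) the effect of stiffness differed between gel types by the interaction term (edgeR, BH-adjusted p under 0.05). The call was kept in 4 of 19 alternatives for Gsn, 9 for Tmsb4x, 14 for Diaph1 and 17 for Evl. It was kept in all 19 for Enah, Flnc and Actn1. The interaction was below 0, meaning a smaller or opposite change from 2 to 20 kPa on viscoelastic gels, for Flnc (-0.49, adjusted p = 0.0145), Actn1 (-0.46, adjusted p = 0.0063), Diaph1 (-0.37, adjusted p = 0.025) and Tmsb4x (-0.36, adjusted p = 0.0357). It was above 0 for Enah (0.45, adjusted p = 0.0168), Evl (0.42, adjusted p = 0.0145) and Gsn (0.39, adjusted p = 0.0493). The changes with stiffness behind these values were 0.21 on elastic and -0.28 on viscoelastic gels for Flnc, 0.20 and -0.27 for Actn1, 0.32 and -0.05 for Diaph1, 0.53 and 0.16 for Tmsb4x, -0.40 and 0.06 for Enah, -0.11 and 0.32 for Evl, and -0.29 and 0.10 for Gsn. With 3 samples in a group no search for single outlying samples was made.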

How the results depend on the processing

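Every called change of a single member kept its direction under every alternative except that of Tmsb4x between gel types at 20 kPa, which was -0.01353 after the length and GC correction and -0.01411 with the replicate block as well. The counts of members called at 20 kPa and in the mean viscoelastic effect stayed within 1.5 times of 22 and 21 under every alternative. The count with stiffness on elastic gels was 5 at a threshold of 0.01. On viscoelastic gels it was 0 at 0.01, 1 after the length and GC correction, 0 with the replicate block as well, 0 with 6 samples alone and 9 with DESeq2's Wald test. The interaction count was 1 at 0.01, 11 with no filter, 12 after the length and GC correction and 13 with DESeq2's Wald test. Among all genes the calls on viscoelastic gels went from 331 to 169 with the correction, 86 with the block as well and 757 with DESeq2. The interaction calls went from 1100 to 1450 with no filter, 1198 with the correction and 1359 with DESeq2. The cause was not tested for these. Leaving out 1 sample gave 6 to 14 at 2 kPa (14 without 2-kPa viscoelastic replicate 1), 16 to 25 at 20 kPa, 5 to 15 with stiffness on elastic gels, 0 to 4 on viscoelastic gels, 18 to 23 for the mean effect, 4 to 9 for the interaction (4 without 2-kPa elastic replicate 3, 20-kPa elastic replicate 3 or 20-kPa viscoelastic replicate 1) and 3 to 7 for the ratios. Among all genes the calls then ranged from 1545 to 3084 at 2 kPa, 3175 to 5380 at 20 kPa and 1063 to 2371 with stiffness on elastic gels. They ranged from 9 to 351 on viscoelastic gels, 4914 to 6061 for the mean effect and 670 to 1182 for the interaction.

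Scaling by total counts alone moved the split of calls to 7 higher and 16 lower at 20 kPa and to 7 and 15 in the mean effect, and the length and GC correction moved that at 2 kPa to 2 and 5. With DESeq2's size factors the interaction was above 0 for 2 and below 0 for 5. The median change of all genes moved by no more than 0.05 under any scaling.

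Samples of the same replicate number did not deviate together throughout (correlations of deviations between -0.16 and 0.31), so the numbers were not taken as pairs. With the replicate block as a term 9 members were called at 2 kPa, 22 at 20 kPa, 12 with stiffness on elastic and 2 on viscoelastic gels, 21 in the mean effect and 5 in the interaction (Gsn and Tmsb4x were lost), and 4 ratios. Not every sample was closest to its own number. The lowest count of a member was 209 (Wasf1), where counting error weighs most, and for the more abundant members the spread of 3 samples set the limit.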
